A study of Mus musculus with 6 samples.

Results

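The 7 genes described here encode calmodulin-dependent kinases and the calmodulin-binding protein neurogranin: Camk2a, Camk2b, Camk2d, Camk2g, Camk4, Camkk2 and Nrgn. They were taken by gene name, and all 7 were present in each table, of 19006 mouse genes in the SCRB-seq wells, 21987 in the bulk SMART-Seq2 wells, 23295 in the plate nuclei and 19905 in the droplet nuclei. The labels of the 6 GEO samples give C57BL/6J mice of 8 to 12 weeks and name no transgene or treatment. The labels give the tissue as cortex, while the extraction text speaks of 50 µm scrolls of brain fixed in formalin and embedded in paraffin (FFPE). Paraffin was removed in one of 3 ways before nuclei were isolated: with hot mineral oil, with hot xylene (the heated preparations below) or with xylene kept at room temperature. Frozen nuclei, named in the authors' annotation of the wells and nuclei but not in the labels of the 6 GEO samples, served as the reference. Nothing in the sources ties them to particular animals or to a batch, so FFPE against frozen and a difference of animal or batch cannot be told apart.

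The 4 calcium/calmodulin-dependent kinase II genes each encode a subunit of a holoenzyme that calcium-loaded calmodulin switches on. The alpha subunit (Camk2a) and the beta subunit (Camk2b) dominate in forebrain neurons, where the kinase is central to synaptic plasticity, while the delta subunit (Camk2d) and the gamma subunit (Camk2g) are also found widely outside neurons. Camk4 encodes a largely nuclear kinase that phosphorylates the transcription factor CREB and is abundant in cerebellar granule neurons. Camkk2 encodes an upstream kinase that activates CaMKIV, CaMKI and AMPK. Nrgn encodes neurogranin, a small postsynaptic protein of forebrain neurons that binds calcium-free calmodulin through an IQ motif.

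RefSeq promoter windows (GRCm38.p6, the 250 bases before RefSeq's gene start) were given for 4 of the 7 genes: Camk2b, Camk2d, Camkk2 and Nrgn. The windows of Camk2b and Camk2d, a pair of CaMKII genes that were both higher in the FFPE wells of SCRB-seq, are shown 5′ to 3′ on the strand of the gene, with each GC box (GGGCGG, or CCGCCC on the other strand) in capitals. The Camk2b window is chr11:6065749-6065998 on the minus strand, and the Camk2d window is chr3:126596701-126596950 on the plus strand. Both lie inside the GENCODE gene spans, which begin further upstream, and overlap none of the annotated exons of the gene.
Camk2b: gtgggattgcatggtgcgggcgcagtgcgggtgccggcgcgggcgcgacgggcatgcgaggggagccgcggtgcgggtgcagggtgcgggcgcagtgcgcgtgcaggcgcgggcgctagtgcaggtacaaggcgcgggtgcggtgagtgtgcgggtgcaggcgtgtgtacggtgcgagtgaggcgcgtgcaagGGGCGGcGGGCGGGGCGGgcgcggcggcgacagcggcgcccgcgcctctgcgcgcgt
Camk2d: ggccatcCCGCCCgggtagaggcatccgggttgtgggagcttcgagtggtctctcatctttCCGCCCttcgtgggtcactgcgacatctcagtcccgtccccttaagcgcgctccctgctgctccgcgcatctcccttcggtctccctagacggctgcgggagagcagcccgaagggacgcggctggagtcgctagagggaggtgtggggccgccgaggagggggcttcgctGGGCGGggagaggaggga
Both windows held 3 GC boxes, and those of Camkk2 and Nrgn held 1 each. Over 32851 promoter windows of the same length, 32.7% held at least 1. GC content was 78.4% for Camk2b, 68.4% for Camk2d, 72.4% for Camkk2 and 58.4% for Nrgn. The letters of the CRE half-site (TGACG, or CGTCA on the other strand), to which CREB binds, were in none of the 4 windows and in 17.8% of all. Those of a TATA box (TATAAA or TTTATA) were in none of the 4 and in 12.4% of all.

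In the GENCODE M21 annotation of GRCm38, all 7 were protein-coding genes. Camk2a (ENSMUSG00000024617.16) lies on the plus strand of chromosome 18, from 60925618 to 60988152, and Camk4 (ENSMUSG00000038128.7) on the same strand of that chromosome, from 32934931 to 33191228. Camk2b (ENSMUSG00000057897.14) lies on the minus strand of chromosome 11, from 5969644 to 6066362, and Camk2d (ENSMUSG00000053819.16) on the plus strand of chromosome 3, from 126596302 to 126846326. Camk2g (ENSMUSG00000021820.18) lies on the minus strand of chromosome 14, from 20734875 to 20794088, Camkk2 (ENSMUSG00000029471.13) on the minus strand of chromosome 5, from 122731170 to 122779409, and Nrgn (ENSMUSG00000053310.11) on the minus strand of chromosome 9, from 37544492 to 37552904. Their protein-coding transcripts shared no stretch of 50 bases with one another, so no exact match of that length was common to any pair of them.

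SCRB-seq, which counts the 3′ ends of transcripts, gave 64 wells: 16 for each way of removing paraffin and 16 of frozen nuclei, each 16 made of 8 wells with 10 nuclei and 8 with 100. Mouse counts per well ranged from 7512 to 167144, and the 8 mineral oil wells of 10 nuclei were the shallowest, at a median of 14558. SMART-Seq2, which covers whole transcripts, gave 12 bulk wells of 270363 to 942966 counts, with 1 well each of 100, 50 and 10 nuclei in every group. The FFPE wells held more of the granule-neuron markers than the frozen wells, with a summed level in SCRB-seq of 307 to 6268 counts per 1000000 (CPM) against 0 to 292, and 7 of the 8 list genes with a count against 5 (Gabra6 and Cbln3 were at 0 in frozen wells). Forebrain glutamatergic markers were lower, at 95.8 to 1140 against 595 to 1179 CPM, with 8 of 8 genes counted in both. The same lists stood at 1320 to 3886 against 59.2 to 200 CPM and at 109 to 487 against 1198 to 2132 CPM in bulk SMART-Seq2. Of the other lists, summed levels of oligodendrocyte markers in SMART-Seq2 were 745 to 2505 against 67.3 to 343 CPM, of GABAergic markers 486 to 2590 against 5.61 to 322, and of Purkinje markers 5.85 to 280 against 549 to 703. In SCRB-seq the xylene and mineral oil wells parted from the frozen wells in opposite directions for 2 lists. Against a frozen median of 369 CPM, oligodendrocyte markers had medians of 233 after mineral oil, 2055 after heated xylene and 1866 after xylene at room temperature, and against one of 192 CPM, GABAergic markers had 89.2, 943 and 849 in the same order. Purkinje markers (13.6, 50.0 and 108 against 643 CPM) and striatal spiny neuron markers (495, 448 and 445 against 1252, with Drd1 and Adora2a at 0 in FFPE wells) had a lower median in all 3 preparations. Itpr1 carried most of the Purkinje sum, with means of 79.9 CPM in FFPE and 531 CPM in frozen wells (121 and 575 CPM in SMART-Seq2). Calb1 was also lower (14.4 against 98.4 CPM in SCRB-seq), Car8 was not (8.53 against 6.06), and only 3 of the 4 list genes were present. In the striatal list Pde10a carried most of the sum (402 against 1144 CPM in SCRB-seq), and Ppp1r1b was not lower (18.4 against 13.6). The labels name cortex, which holds no granule neurons of the cerebellum. In bulk wells, fewer cells of a type and less RNA per cell cannot be told apart, and what part these marker levels have in the differences below was not tested. All wells of an assay form 1 GEO sample, so each p-value below measures the spread between wells and not between animals.

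Camk2a and Nrgn were far lower in FFPE than in frozen wells of SCRB-seq, and Camk4, Camk2d and Camk2b were higher. Camk2a, the alpha subunit, was measured at 518 CPM in the lowest frozen well, 736 in the median and 1251 in the highest. In heated xylene it ran from 21.6 through a median of 72.8 to 520 CPM, and in room-temperature xylene from 18.3 through 217 to 458. The mineral oil wells were lowest, with 11 of 16 at 0 counts, 14 counts in all and a highest well of 90.9 CPM. Of the 48 FFPE wells, 47 lay below the lowest frozen well, and a single heated-xylene well at 520 CPM reached the frozen range. The mean was 111 ± 129 CPM (SD, n = 48) in FFPE and 794 ± 224 CPM (SD, n = 16) in frozen wells.

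Nrgn, the neurogranin gene, stood at 292, 627 and 1085 CPM in the lowest, median and highest frozen well. It was at 0 in 9 of 16 mineral oil wells, which reached 304 CPM at most. In heated xylene the median was 67.9 CPM (0 to 411, 3 wells at 0), and in room-temperature xylene 91.4 CPM (0 to 354, 2 wells at 0). In 45 of the 48 FFPE wells the level was below that of every frozen well. Camk2a and Nrgn thus both fell in all 3 preparations, and neither separated the groups in every single well. Over 19006 genes, FFPE wells lay wholly below frozen wells for 0.147% and wholly above for 0.1%, and no member was among them.

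Camk4, the CREB kinase, ran the other way. Its level was 0, 325 and 712 CPM in the lowest, median and highest frozen well, against 149, 659 and 2213 in heated xylene, 369, 751 and 1304 in xylene at room temperature, and 0, 704 and 1623 in mineral oil. The ranges overlapped, and 25 of 48 FFPE wells lay above the highest frozen well. Mean levels were 741 ± 459 CPM (SD, n = 48) in FFPE and 324 ± 202 CPM (SD, n = 16) in frozen wells.

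The other CaMKII subunits and Camkk2 differed less. Camk2b, the beta subunit, had medians of 419 CPM in frozen wells (53.1 to 635), 533 in mineral oil (95.8 to 2599), 655 in heated xylene (336 to 1271) and 616 in xylene at room temperature (158 to 1064), and 24 of 48 FFPE wells lay above the frozen range. Camk2d, the delta subunit, had medians of 114 CPM in frozen wells (0 to 275), 52.7 in mineral oil (0 to 1057, 8 wells at 0), 161 in heated xylene (112 to 622) and 218 in xylene at room temperature (109 to 678). Every xylene well held Camk2d counts, and 16 FFPE wells lay above the frozen range. Camk2g, the gamma subunit, averaged 99.0 ± 96.5 CPM (SD, n = 48) in FFPE and 72.0 ± 63.9 CPM (SD, n = 16) in frozen wells, with 9 of 16 mineral oil wells and 2 of 16 frozen wells at 0. Camkk2, the upstream kinase, averaged 136 ± 139 CPM (SD, n = 48) and 165 ± 69.0 CPM (SD, n = 16), with 10 FFPE wells below the frozen range and 8 above it.

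**Figure D1:**
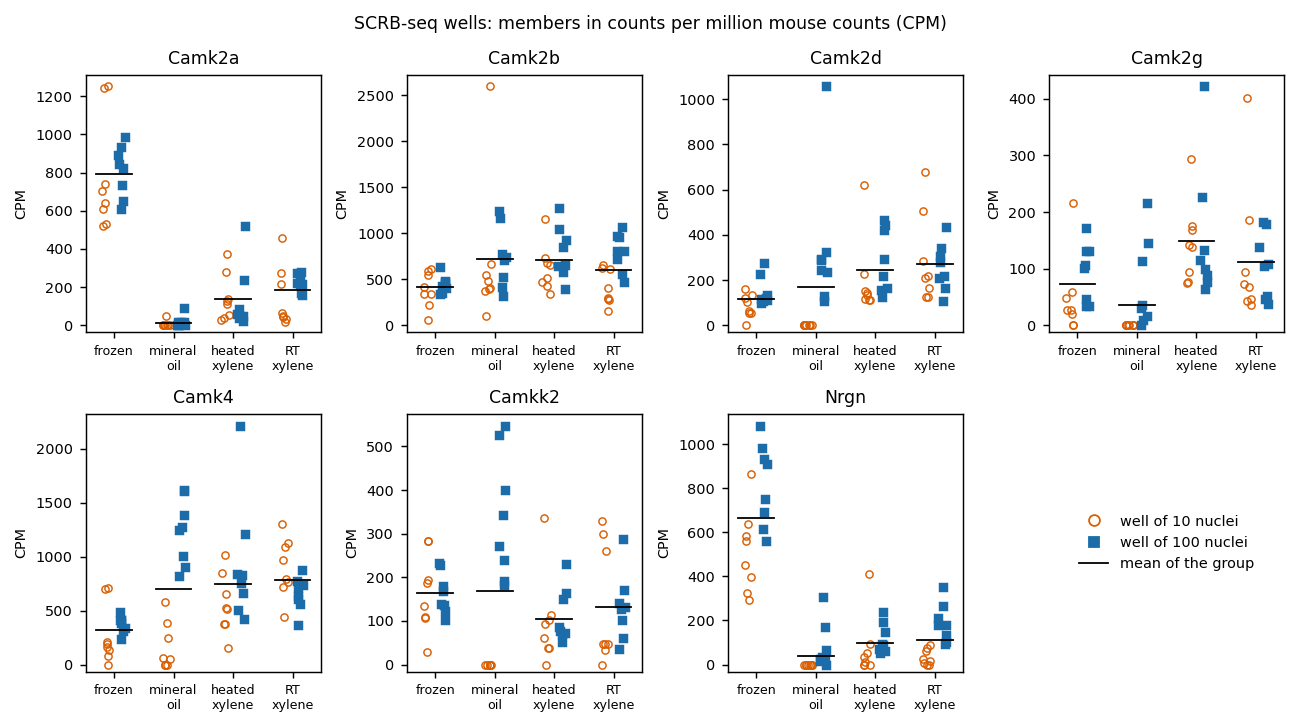
Level, in CPM, of each of the 7 genes in every SCRB-seq well, by group; open circles are wells of 10 nuclei, squares wells of 100, and lines mark group means. All but 1 of the 48 FFPE wells lie below the lowest frozen well for Camk2a (518 CPM), while 25 lie above the highest frozen well for Camk4 (712 CPM).

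Differences were tested with edgeR's quasi-likelihood test on counts, with Benjamini-Hochberg adjustment over all genes tested, and a gene was called at an adjusted p under 0.05. FFPE minus frozen, taken as the mean of the 3 preparations, called 857 of 1478 genes (58.0%), 447 higher (30.2%) and 410 lower (27.7%), with a median log2 fold change of 0.00. Of the 7 members 6 passed the filter on low counts, and 5 were called, 3 higher and 2 lower, a share that stands against a background in which most genes tested were called. Camk2a, Nrgn and Camkk2 did not pass the same filter among the FFPE wells alone. They were tested here only because the frozen wells, in which Camk2a and Nrgn were high, were included. Camk2a was lower by 3.30 on the log2 scale, a fitted change of -3.30 (SE 0.29, adjusted p = 1.83e-16) or 9.85-fold. Nrgn had a fitted log2 change of -2.93 (SE 0.33, adjusted p = 5.7e-12), or 7.62-fold lower. Camk4 was 2.30-fold higher, with a log2 change of 1.20 (SE 0.32, adjusted p = 0.00105). Smaller rises were called for Camk2d, at 0.89 (SE 0.35, adjusted p = 0.0241), and for Camk2b, at 0.64 (SE 0.23, adjusted p = 0.0123). Camkk2 did not pass the test, at -0.22 (SE 0.36, adjusted p = 0.629), and Camk2g had too few counts to be tested.

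The scaling of the wells bore on the smaller calls. DESeq2's size factors moved the median of all genes from 0.00 to -0.58 and the calls to 309 higher and 674 lower. Relative to that median, Camk2a stood at -3.34, Nrgn at -2.92, Camk4 at 1.20, Camk2d at 0.90, Camk2b at 0.62 and Camkk2 at -0.21, within 0.04 of the values under TMM scaling. Taken without that reference, Camk4 was no longer called by edgeR (log2 change 0.62, adjusted p = 0.0797), nor were Camk2d (0.32, adjusted p = 0.422) and Camk2b (0.04, adjusted p = 0.869), and Camkk2 was called lower (-0.79, adjusted p = 0.0479), while 66.5% of genes were called. When the wells of each group and nuclei number were summed into 1 pool, 141 of 10235 genes were called (1.38%), and Nrgn kept its call (-3.06, adjusted p = 0.047) while Camk2a (-2.81, adjusted p = 0.106), Camk4 (1.09, adjusted p = 0.419), Camk2d (0.77, adjusted p = 0.797) and Camk2b (0.66, adjusted p = 0.511) did not. Wells of 10 nuclei alone left Camk4 at 0.72 (adjusted p = 0.199) and Camk2b at 0.53 (adjusted p = 0.232), and a minimum count of 3 in the filter left Camk2b at 0.53 (adjusted p = 0.0812) and Camk2d at 0.79 (adjusted p = 0.0787). Without the 8 mineral oil wells of 10 nuclei, all 7 genes passed the filter, and Camk2a was at -3.18, Nrgn at -2.68, Camk4 at 1.49 (adjusted p = 4.65e-07), Camk2d at 1.18 (adjusted p = 0.00029) and Camk2b at 0.75 (adjusted p = 0.00179). In that fit, which called 51.1% of 2569 genes, Camk2g (0.57, adjusted p = 0.202) and Camkk2 (0.09, adjusted p = 0.817) did not pass.

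Each preparation was also set against the same 16 frozen wells, which the 3 comparisons share. Heated mineral oil called 55.1% of genes, heated xylene 50.3% and room-temperature xylene 49.5%. Camk2a was at -5.40 (SE 0.50) after mineral oil, -2.48 (SE 0.38) after heated xylene and -2.02 (SE 0.37) after room-temperature xylene. Nrgn was at -3.53, -2.71 and -2.54 in the same order, and Camk4 at 1.12, 1.18 and 1.30, each of them called. Camk2b was called in mineral oil (0.61, adjusted p = 0.047) and heated xylene (0.77, adjusted p = 0.012) and stood at 0.53 in room-temperature xylene (adjusted p = 0.092). Camk2d was called in heated xylene (0.93, adjusted p = 0.0498) and room-temperature xylene (1.17, adjusted p = 0.0121) and stood at 0.56 in mineral oil (adjusted p = 0.256). Under the size factors of DESeq2 no rise was called in any preparation: Camk4 then stood at 0.60 (adjusted p = 0.154), 0.55 (adjusted p = 0.204) and 0.70 (adjusted p = 0.112), Camk2b at 0.06 (adjusted p = 0.86) in mineral oil and 0.07 (adjusted p = 0.838) in heated xylene, and Camk2d at 0.30 (adjusted p = 0.558) and 0.59 (adjusted p = 0.233) in the xylene preparations. Camkk2 was then called lower in heated xylene (-1.26, adjusted p = 0.0162). In wells of 10 nuclei Camk4 stood at -0.67 in mineral oil (adjusted p = 0.369). Camk2a and Nrgn kept their calls in all 3 preparations under that scaling.

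Bulk SMART-Seq2, a different chemistry with 12 wells, gave calls in the same direction for Camk2a, Nrgn and Camk4. Camk2a measured 954, 703 and 864 CPM in the frozen wells of 100, 50 and 10 nuclei. The corresponding levels were 164, 148 and 212 CPM in heated xylene, 204, 252 and 118 in xylene at room temperature, and 84.8, 26.0 and 39.0 in mineral oil. All 9 FFPE wells lay below all 3 frozen wells, and the mineral oil wells were lowest.

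Nrgn measured 219, 192 and 291 CPM in the frozen wells of 100, 50 and 10 nuclei, 53.3, 29.3 and 20.1 CPM in heated xylene, 75.4, 12.3 and 77.1 CPM in room-temperature xylene, and 2.69, 33.1 and 13.7 CPM in mineral oil. Again the groups did not overlap. Camk4 measured 347, 263 and 285 CPM in frozen wells, against 1347, 902 and 673 in heated xylene, 978, 1320 and 997 in xylene at room temperature and 1893, 2072 and 1974 in mineral oil. All 9 FFPE wells lay above the frozen wells, and the 3 mineral oil wells above all other wells.

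Camkk2 was also above the frozen range in all 9 FFPE wells of SMART-Seq2, at 130, 124 and 104 CPM in heated xylene, 132, 129 and 223 in xylene at room temperature and 149, 137 and 101 in mineral oil, against 70.7, 70.3 and 40.4 in frozen wells. Camk2d averaged 416 ± 262 CPM (SD, n = 9) in FFPE and 128 ± 42.7 CPM (SD, n = 3) in frozen wells, and 8 of 9 FFPE wells lay above the frozen range. Camk2b averaged 619 ± 176 CPM (SD, n = 9) and 464 ± 94.0 CPM (SD, n = 3), and Camk2g 155 ± 98.6 CPM (SD, n = 9) and 188 ± 37.4 CPM (SD, n = 3), both with overlapping wells. Over 17240 genes with a count, FFPE wells lay wholly below frozen wells for 3.68% and wholly above for 2.01%.

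**Figure D2:**
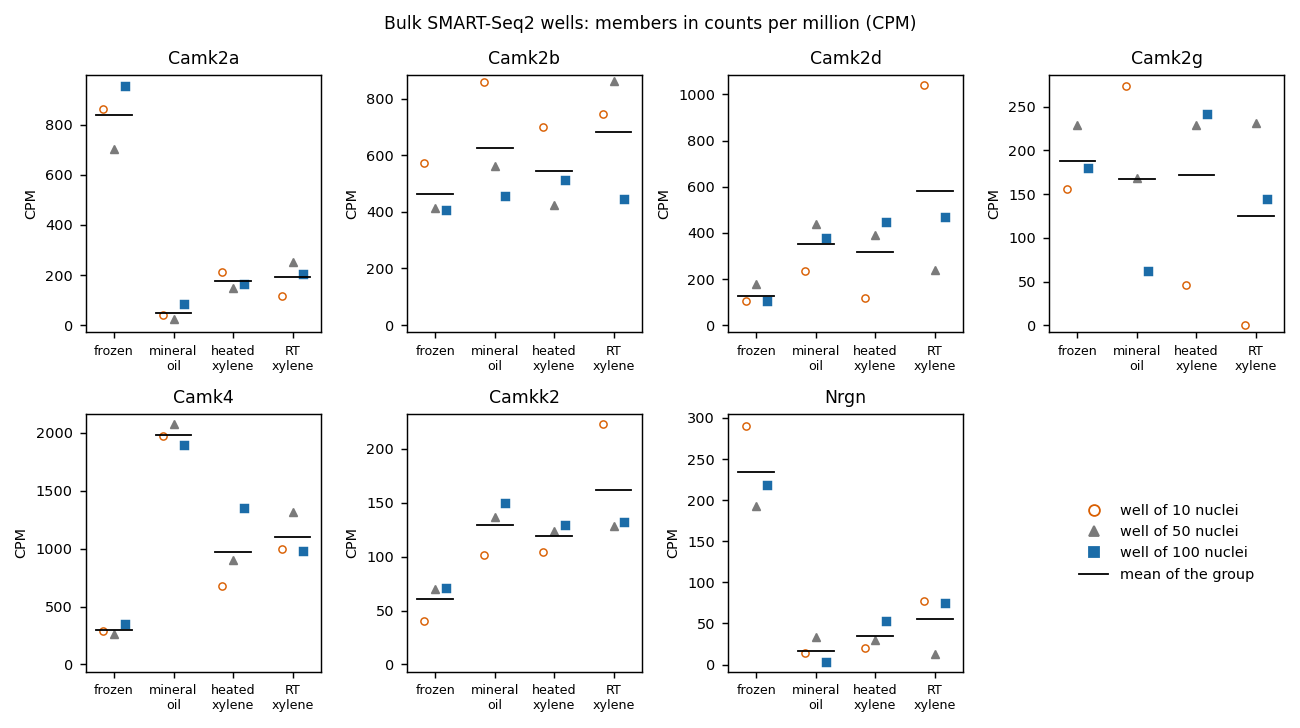
Level, in CPM, of each of the 7 genes in every bulk SMART-Seq2 well, by group, with the number of nuclei in the well shown by the symbol and the group mean by a line. Camk2a and Nrgn lie below the frozen wells in all 9 FFPE wells, and Camk4 and Camkk2 above them.

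The edgeR fit over the SMART-Seq2 wells called 372 of 9092 genes (4.09%), 132 higher (1.45%) and 240 lower (2.64%), with a median of -0.13. All 7 members were tested, and 1 was called higher and 2 lower. The changes on the log2 scale were -3.08 for Camk2a (SE 0.41, adjusted p = 3.85e-05), an 8.46-fold lower level, and -3.17 for Nrgn (SE 0.72, adjusted p = 0.0102). Camk4 was at 1.84 (SE 0.34, adjusted p = 0.00171), or 3.58-fold higher. Camk2d stood at 1.41 (SE 0.55, adjusted p = 0.187), Camkk2 at 0.92 (SE 0.67, adjusted p = 0.607), Camk2b at 0.17 (SE 0.40, adjusted p = 0.909) and Camk2g at -0.54 (SE 0.80, adjusted p = 0.857), none of them called. The Nrgn call was lost when any 1 frozen well was left out, with adjusted p of 0.117, 0.0694 and 0.195 without the wells of 100, 50 and 10 nuclei. Camk2a and Camk4 kept their calls whichever well was left out.

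By preparation, the SMART-Seq2 fit called 2.52% of genes after mineral oil, 1.0% after heated xylene and 1.53% after room-temperature xylene, always against the same 3 frozen wells. Camk2a was called in each, at -4.32 (adjusted p = 0.000193), -2.47 (adjusted p = 0.0373) and -2.46 (adjusted p = 0.03). Camk4 was called in mineral oil (2.48, adjusted p = 0.000443) and room-temperature xylene (1.57, adjusted p = 0.0353) and stood at 1.47 in heated xylene (adjusted p = 0.069). Nrgn was called in mineral oil (-4.11, adjusted p = 0.0476) and stood at -3.02 (adjusted p = 0.26) and -2.39 (adjusted p = 0.341) in the xylene preparations. Its mineral oil call was lost with nuclei number as a block (-4.04, adjusted p = 0.0881), with DESeq2's size factors (adjusted p = 0.0518), with no filter (adjusted p = 0.0503) and without any 1 frozen well (adjusted p of 0.234, 0.172 and 0.297 without the wells of 100, 50 and 10 nuclei). The block also ended the calls of Camk2a in heated xylene (-2.43, adjusted p = 0.0579) and in room-temperature xylene (-2.41, adjusted p = 0.0504), as did leaving out any 1 frozen well (adjusted p of 0.146 to 0.342 and of 0.122 to 0.29). Camk4 in room-temperature xylene lost its call without any 1 frozen well (adjusted p of 0.0575 to 0.165).

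**Figure D3:**
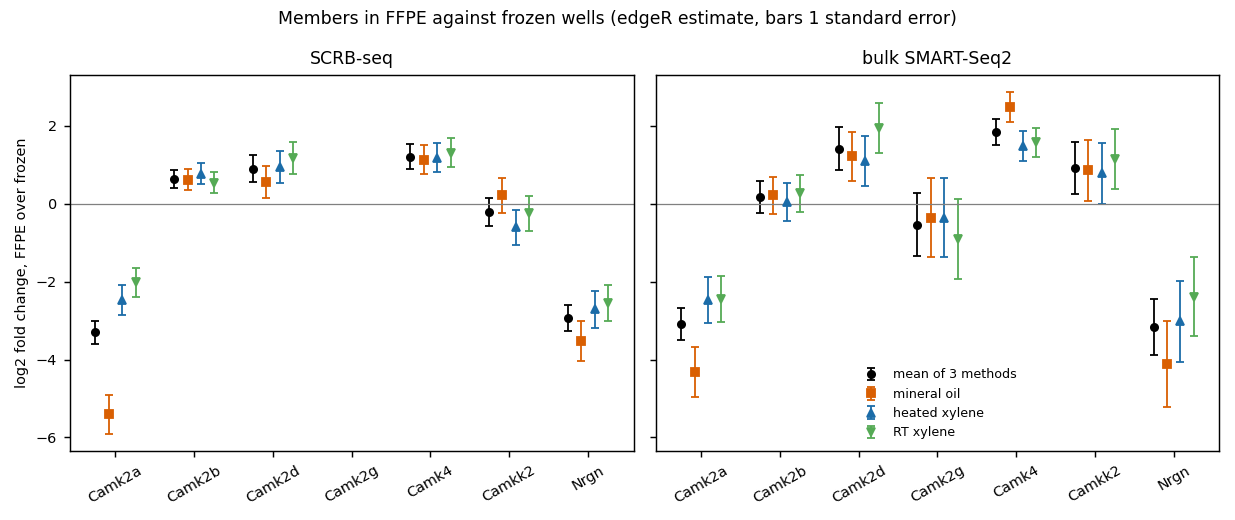
Log2 fold change of FFPE over frozen wells for each gene, with bars of 1 standard error, as the mean of the 3 preparations and for each alone, in SCRB-seq and bulk SMART-Seq2. Camk2a and Nrgn are below 0 and Camk4 above 0 in every estimate, with Camk2a lowest in mineral oil in both chemistries (-5.40 and -4.32); Camk2g was not tested in SCRB-seq.

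Because SMART-Seq2 covers whole transcripts, levels of different genes were compared per kilobase of merged exons in that assay alone. In frozen wells the order was Nrgn at 161 CPM per kilobase, Camk2a at 113, Camk4 at 91.5, Camk2b at 50.8, Camk2g at 29.4, Camk2d at 5.70 and Camkk2 at 5.54. In FFPE wells it was Camk4 at 414 CPM per kilobase, Camk2b at 67.8, Nrgn at 24.3, Camk2g at 24.2, Camk2a at 18.6, Camk2d at 18.5 and Camkk2 at 12.5. The FFPE values are means over all 3 preparations, and the wells varied widely. Nrgn, for example, averaged 35.2 ± 27.4 CPM (SD, n = 9) and Camk2g 155 ± 98.6 CPM (SD, n = 9). The FFPE order below Camk2b is therefore not read as a ranking. By this measure the alpha subunit was the highest CaMKII gene in frozen wells and the beta subunit in FFPE wells. The merged exons of Camk2d span 22493 bases, so its level per length depends on annotated exons that may not all be used. The sources name no counter, so it is not known whether reads from introns were counted. Any such reads would raise the level per kilobase of exons, and their part was not tested. Camk4 has 3259 bases of merged exons in a gene span of 256298 bases. Its place above the other genes therefore holds for this measure only.

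The pathway around these genes was read through a list of 38 genes for calmodulins, other calmodulin-binding proteins, related kinases, inhibitors, phosphatases, calmodulin-regulated enzymes and substrates. In SCRB-seq, FFPE minus frozen called 3 of 16 tested genes higher and 8 lower, where 30.2% of all genes were called higher and 27.7% lower, with a median log2 change of -0.72 against 0.00 for all genes. The rises were the calmodulin-stimulated phosphodiesterase Pde1c (2.61, SE 0.26, adjusted p = 3.51e-14), the calcineurin catalytic gene Ppp3cb (1.51) and the calmodulin-stimulated adenylyl cyclase Adcy1 (1.24). Among the falls were Pde1a, another such phosphodiesterase (-3.39, SE 0.37, adjusted p = 1.41e-12), the NMDA receptor subunit Grin2b (-2.81), the synaptic vesicle protein Syn1 (-1.81) and the death-associated kinase Dapk1 (-1.29).

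In SMART-Seq2, 35 of the 38 were tested, with 3 called higher and 5 lower, where 1.45% of all genes were called higher and 2.64% lower, and a median of -0.52 against -0.13 for all genes. Among the rises were the calmodulin gene Calm2 (1.84, adjusted p = 0.00369, against 0.04 and an adjusted p of 0.917 in SCRB-seq) and Adcy1 (1.93). Pde1a (-5.52), the pseudokinase gene Camkv (-3.19), Dapk1 (-2.73), Grin2b (-2.34) and Camk1d (-1.58) were lower.

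Between the 3 ways of removing paraffin, SCRB-seq called 92 of 1080 genes for mineral oil against heated xylene (8.52%), 21 for heated against room-temperature xylene (1.94%) and 111 for mineral oil against room-temperature xylene (10.3%). Only Camk2b, Camk2d and Camk4 passed the filter on low counts, and none was called in any pair. Their log2 differences between mineral oil and heated xylene were -0.06 for Camk2b (adjusted p = 0.915), -0.35 for Camk2d (adjusted p = 0.68) and -0.05 for Camk4 (adjusted p = 0.953). Heated against room-temperature xylene gave 0.23 (adjusted p = 0.772), -0.20 (adjusted p = 0.898) and -0.11 (adjusted p = 0.954) in the same order, and mineral oil against room-temperature xylene gave 0.17 (adjusted p = 0.75), -0.55 (adjusted p = 0.476) and -0.16 (adjusted p = 0.83). In pathway genes, mineral oil against heated xylene gave 1 rise of 13 tested, Adcy1 (1.66), and 3 falls, Grin2b (-2.22), Gria1 (-1.66) and Dapk1 (-1.60). Mineral oil against room-temperature xylene gave 0 rises and 1 fall among the same 13, and heated against room-temperature xylene 1 rise and 0 falls.

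With a minimum count of 3 in place of 10 in the filter, Camk2a was testable and was lower in mineral oil than in either xylene preparation, while 13.1% and 12.2% of 3909 genes were called. Its difference was -2.90 against heated xylene (SE 0.58, adjusted p = 0.000232) and -3.41 against room-temperature xylene (SE 0.58, adjusted p = 2.49e-05). The 2 xylene preparations differed by -0.51 (adjusted p = 0.58), where 6.34% of genes were called. Without the mineral oil wells of 10 nuclei the differences of Camk2a were -2.74 (adjusted p = 0.00694, with 7.98% of genes called) and -3.22 (adjusted p = 0.00189, with 7.61% called). Under the looser filter Camk2g was also called lower in mineral oil than in heated xylene (-1.65, SE 0.50, adjusted p = 0.0188), but stood at -1.10 (adjusted p = 0.222) without those wells. Nrgn stood at -0.86 (adjusted p = 0.383) and -1.04 (adjusted p = 0.283) against the xylene preparations.

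For Camk4 the order of the preparations was not the same in wells of 10 and of 100 nuclei. In wells of 10 nuclei, mineral oil ran from 0 through a median of 56.1 to 583 CPM, heated xylene from 149 through 519 to 1014 and room-temperature xylene from 443 through 879 to 1304. Fitted alone, those wells gave -1.79 (adjusted p = 0.0269) and -2.62 (adjusted p = 0.00112) for mineral oil against heated and room-temperature xylene, where 20.8% and 19.1% of 509 genes were called. In wells of 100 nuclei, mineral oil ran from 825 through 1259 to 1623 CPM, heated xylene from 424 through 796 to 2213 and room-temperature xylene from 369 through 670 to 872. There the difference of mineral oil from room-temperature xylene was 0.98 (SE 0.28, adjusted p = 0.0205), and from heated xylene 0.40 (adjusted p = 0.386), with 9.11% and 13.1% of 1953 genes called. Camkk2, the upstream kinase, could be tested in wells of 100 nuclei, where it had medians of 307 CPM in mineral oil (183 to 547), 81.6 in heated xylene (50.7 to 231) and 129 in room-temperature xylene (36.3 to 289). It was called higher in mineral oil than in heated xylene (1.56, SE 0.38, adjusted p = 0.0059) and room-temperature xylene (1.38, SE 0.38, adjusted p = 0.0166). Over all wells under the looser filter it stood at 0.85 (adjusted p = 0.281) and 0.48 (adjusted p = 0.596), and without the mineral oil wells of 10 nuclei at 1.60 (adjusted p = 0.0174) and 1.18 (adjusted p = 0.0977). The difference between the 2 nuclei numbers was not tested for single pairs. In SMART-Seq2, 0 of 8372 genes were called in any pair by edgeR (314, 199 and 379 genes at an unadjusted p under 0.05, in the order of the pairs above, and 16, 1 and 20 called by DESeq2), and Camk4 stood at 1.02 for mineral oil against heated xylene (unadjusted p = 0.0102, adjusted p = 1.0).

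Wells of 100 nuclei were also set against wells of 10. In FFPE, as the mean of the 3 preparations, 1436 of 2511 genes were called (57.2%, with 47.2% higher), and the median log2 change was 0.79. Nrgn (2.67), Camk2d (2.49), Camkk2 (2.46), Camk2g (1.61), Camk4 (1.01) and Camk2b (0.49) were called higher, and Camk2a stood at 0.45 (adjusted p = 0.417). The mineral oil wells of 10 nuclei held 0 counts of Camk2d, Camk2g, Camkk2 and Nrgn, so the fitted folds of these 4 depend on the prior count. Pooled, these wells allow up to 32.0 CPM, a limit that covers counting error only and not the spread between wells. Without all mineral oil wells 30.3% of 2185 genes were called, and among the members only Nrgn was, at 1.15 (SE 0.40, adjusted p = 0.0245). The others then stood between -0.33 for Camk2g and 0.38 for Camk2b.

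In frozen wells, edgeR called 1 of 2511 genes between 100 and 10 nuclei (0.0398%), with 187 at an unadjusted p under 0.05, DESeq2 called 2, and no member was among the genes called by edgeR. The test of the difference between FFPE and frozen wells in this effect called 417 genes (16.6%) and, of the members, Camkk2 alone, at 2.27 (SE 0.74, adjusted p = 0.0262). Camkk2 was at 0 counts in all 8 mineral oil wells of 10 nuclei and at 183, 307 and 547 CPM in the lowest, median and highest mineral oil well of 100. Without mineral oil its difference was -0.19 (adjusted p = 0.919). Camk2d (1.52, adjusted p = 0.105) and Nrgn (1.78, adjusted p = 0.126) did not pass. Under the size factors of DESeq2 all 3 were called by edgeR, Camkk2 at 2.73 (adjusted p = 0.00461), Camk2d at 2.00 (adjusted p = 0.02) and Nrgn at 2.27 (adjusted p = 0.0296), and with no filter it called none of them (Camkk2 at 2.21, adjusted p = 0.0511).

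Single nuclei sorted into plates and read by SMART-Seq2 gave another view. FFPE nuclei form 3 GEO samples, named as batches, and frozen nuclei appear as 1 set in the table of the whole series, so values are described with no test between groups. The table of the whole series held 143 FFPE nuclei (median 47887 counts) and 137 frozen nuclei (median 255329 counts). Of the FFPE nuclei 134 were those of batch 2, with the same values, and the other 9 held 102136 to 4973791 counts. Batch 1 added 98 FFPE nuclei (median 180584 counts), and the table of batch 3 held 0 nuclei. Intervals are exact 95% binomial intervals, which cover counting error only, and reads here are not molecules. To set aside depth, each nucleus was also thinned at random to 10000 counts, which left 135 FFPE and 127 frozen nuclei.

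Camk2a was counted in 46.2% of FFPE nuclei (37.8% to 54.7%) and 87.6% of frozen nuclei (80.9% to 92.6%), and after thinning in 28.1% and 75.6%. Its summed level was 363 CPM in FFPE and 1499 CPM in frozen nuclei, 4.13-fold apart. The size of that gap moved with the weighting of the nuclei: the mean over nuclei was 509 and 1205 CPM, and without nuclei of over 500000 counts, which left 137 FFPE and 87 frozen nuclei, the summed level was 700 and 969 CPM. Nrgn was counted in 39.9% (31.8% to 48.4%) and 83.9% (76.7% to 89.7%), after thinning in 26.7% and 55.9%, at 160 and 644 CPM, with a mean over nuclei of 183 and 734 CPM.

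Camk4 was counted in 86.0% of FFPE nuclei (79.2% to 91.2%) and 72.3% of frozen nuclei (64.0% to 79.6%), and after thinning in 74.1% (65.8% to 81.2%) and 52.0% (42.9% to 60.9%). Its summed levels were alike, at 350 and 333 CPM, and 1 nucleus held 31.2% of the FFPE counts. The mean over nuclei, which weights each nucleus equally, was 715 CPM in FFPE and 235 CPM in frozen nuclei. After thinning, the share was higher in FFPE with intervals apart for 0.607% of 17311 genes and lower for 18.2%. Camk4 was among the former, and Camk2a, Camk2g, Camkk2 and Nrgn among the latter. The FFPE nuclei of this table are mostly those of batch 2. In batch 1 Camk4 was counted in 54.1% of nuclei (43.7% to 64.2%), below the frozen share, and after thinning in 53.3% (42.5% to 63.9%), with an interval that overlapped the frozen one.

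The remaining members were split. Camk2b was counted in 73.4% of FFPE nuclei (65.4% to 80.5%) and 86.9% of frozen nuclei (80.0% to 92.0%), at summed levels of 707 and 923 CPM, whereas the mean over nuclei turned the direction, at 1004 and 841 CPM. Camk2d was counted in 58.0% (49.5% to 66.2%) and 50.4% (41.7% to 59.0%), at 185 and 126 CPM. Camk2g was counted in 32.2% (24.6% to 40.5%) and 66.4% (57.9% to 74.3%), at 93.5 and 144 CPM, and Camkk2 in 28.7% (21.4% to 36.8%) and 61.3% (52.6% to 69.5%), at 39.6 and 161 CPM. Camkk2 was 4.08-fold lower in FFPE nuclei by summed level, whereas the mean over nuclei was 80.2 CPM in FFPE and 101 CPM in frozen nuclei.

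Of 3396 genes with at least 100 CPM in either group, 33.2% were at least 2-fold lower in FFPE nuclei by summed level and 26.6% at least 2-fold higher, and the members past that fold were Camk2a, Camkk2 and Nrgn, all lower. The share of nuclei with a count was lower in FFPE with intervals apart for 46.5% of 21275 genes and higher for 0.277%. The members with a lower share were Camk2a, Camk2g, Camkk2 and Nrgn, and none had a higher share, so 4 of 7 is close to the background. Without nuclei of over 500000 counts, the summed level of Camkk2 was 57.7 CPM in FFPE and 80.0 CPM in frozen nuclei, and that of Nrgn 246 and 935 CPM. Camk4 then stood at 487 and 299 CPM, and Camk2d at 331 and 143 CPM. Granule-neuron markers summed to 1094 CPM in FFPE and 133 CPM in frozen nuclei and forebrain glutamatergic markers to 412 and 579 CPM, and their part in these differences was not tested.

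**Figure D4:**
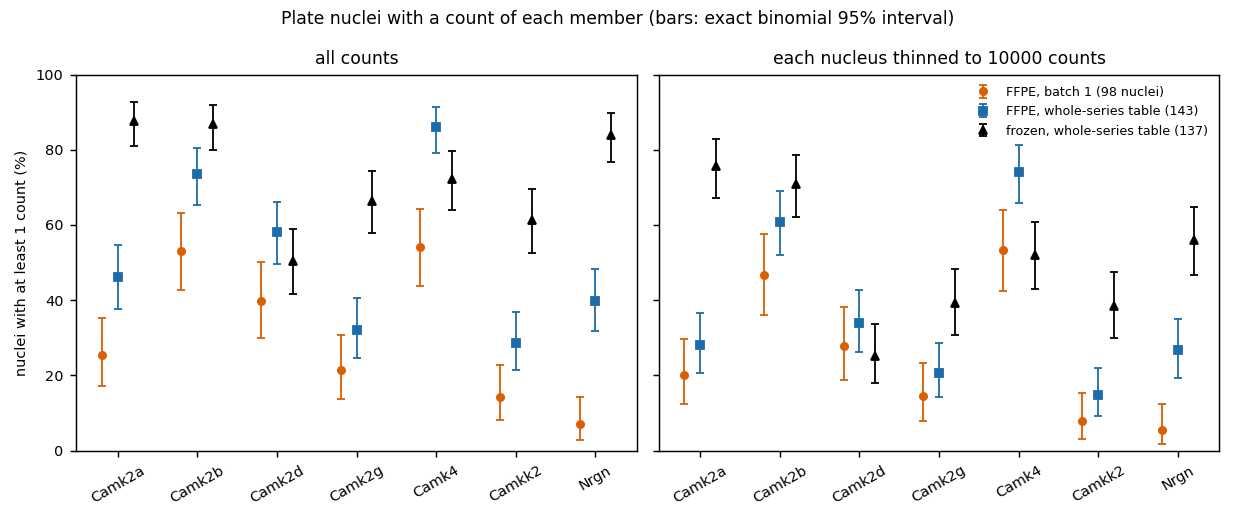
Share of plate nuclei with at least 1 count of each gene, with exact 95% binomial intervals, for FFPE nuclei of batch 1, FFPE nuclei of the whole-series table and frozen nuclei, from all counts and after thinning each nucleus to 10000 counts. After thinning, Camk2a stands at 75.6% of frozen and 28.1% of FFPE nuclei, and Camk4 at 52.0% and 74.1%.

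In the 2 batches of FFPE nuclei, the deeper batch 1 had the smaller share of each member. These shares are given without intervals and the batches were not tested against each other, so the closer shares are not read as a difference. Nrgn was counted in 7.1% of nuclei in batch 1 and 35.8% in batch 2, Camk2a in 25.5% and 42.5%, Camk4 in 54.1% and 85.1%, Camk2b in 53.1% and 71.6%, Camk2d in 39.8% and 55.2%, Camk2g in 21.4% and 27.6%, and Camkk2 in 14.3% and 26.9%. Frozen nuclei belong to neither batch, so batch and preparation cannot be told apart in these nuclei.

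Within batch 1, nuclei were split by Gabra6, the gene of a GABA receptor subunit that marks granule neurons. In the 32 nuclei with a Gabra6 count, Camk4 was counted in 96.9% at a summed level of 1934 CPM, Camk2b in 81.2% at 1028 CPM and Camk2d in 56.2% at 866 CPM. Camk2a was counted in 12.5% of them at 5.2 CPM, and Nrgn in 0, which allows a share of up to 10.9%. In the 66 nuclei without a Gabra6 count, Camk4 was counted in 33.3% (22.2% to 46.0%) at 296 CPM, Camk2a in 31.8% (20.9% to 44.4%) at 530 CPM and Nrgn in 10.6% (4.37% to 20.6%). The intervals of the 2 sets were apart for Camk4 and overlapped for Camk2a (3.51% to 29.0% in the positive nuclei) and Nrgn. The share of all genes with intervals apart in this split was not computed, so Camk4 is not set against a background here. The positive nuclei were also deeper, at a median of 224451 against 165138 counts. In batch 2, the 49 nuclei with a Gabra6 count had a median of 61827 counts and held Camk2a in 53.1% (38.3% to 67.5%) and Nrgn in 44.9% (30.7% to 59.8%), beside Camk4 in 95.9%, Camk2b in 85.7% and Camk2d in 69.4%. In its 85 nuclei without one (median 40870 counts), Camk2a was counted in 36.5% (26.3% to 47.6%), Nrgn in 30.6% (21.0% to 41.5%) and Camk4 in 78.8%.

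Nuclei of the whole-series table were likewise split by transmitter genes. Among nuclei with a count of the vesicular glutamate transporter Slc17a7 and none of Gad1 and Gad2, Camk2a was counted in 35.5% of 31 FFPE nuclei and 82.4% of 17 frozen nuclei, at summed levels of 138 and 1595 CPM. Nrgn was counted in 38.7% and 94.1% of them, at 533 and 1261 CPM, and Camk4 in 96.8% and 70.6%, at 797 and 274 CPM. The median depth was 52760 counts in these FFPE nuclei and 842592 in the frozen ones, and the shares were not thinned. The lower shares of Camk2a and Nrgn in FFPE nuclei therefore cannot be told apart from a difference of depth, while Camk4 had its higher share in the shallower nuclei. Among nuclei with a Gad1 or Gad2 count and none of Slc17a7, Camk2a was counted in 72.7% of 33 FFPE nuclei and 91.7% of 36 frozen nuclei. Slc17a7 is shared by forebrain glutamatergic and granule neurons, so this split does not part those types. With Gabra6-positive nuclei also left out, Camk2a was counted in 6 of 20 FFPE nuclei (11.9% to 54.3%) and 14 of 17 frozen nuclei (56.6% to 96.2%), at 81.2 and 1595 CPM. In the same nuclei Nrgn was counted in 4 of 20 (5.7% to 43.7%) and 16 of 17 (71.3% to 99.9%), and Camk4 in 19 of 20 and 12 of 17. Summed levels were 374 and 1261 CPM for Nrgn, with 97.1% of the FFPE counts in 1 nucleus, and 789 and 274 CPM for Camk4. The 20 FFPE nuclei all belong to batch 2 and had a median of 41610 counts against 842592, so depth bears on these shares too. Cbln3, another granule marker, was counted in 13 of the 20 and in 0 of the 17.

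The droplet library held 7031 FFPE nuclei in 12 classes named by the authors, with 235 to 998 unique molecular identifiers (UMIs) per nucleus and a median of 325. No doublet caller was run here, and nothing in the labels or files says how doublets were treated before deposit. At that depth most nuclei held no UMI of any one member. Nrgn had 3501 UMIs over all nuclei, Camk4 2274, Camk2a 1279, Camk2b 1192, Camk2d 755, Camkk2 432 and Camk2g 411. Classes were described by summed UMIs per 1000000 (CPM) with exact Poisson intervals and were not tested, since they came from clustering the same nuclei. The marker lists fell where the names place them for oligodendrocytes (11291 CPM in that class), astrocytes (4370), microglia (2662), endothelial cells (1714) and precursors (993). The granule list was highest in ExNeuron3 (2520 CPM), and stood at 2031 CPM in ExNeuron2, 1802 in endothelial cells and 1707 in microglia. The forebrain glutamatergic list was highest in ExNeuron1 (1486 CPM), though it also stood at 1427 CPM in astrocytes and 1237 CPM in endothelial cells. The GABAergic list was highest in ExNeuron4 (2791 CPM) and ExNeuron6 (2031 CPM), which carry an excitatory name, and stood at 1568 CPM in precursors.

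Camk4 had the clearest order of classes. ExNeuron3 held 1424 CPM (1308 to 1548), ExNeuron2 1143 CPM (1033 to 1261) and ExNeuron1 818 CPM (758 to 882). The intervals of ExNeuron3 and ExNeuron2, and of ExNeuron2 and ExNeuron1, did not overlap, and all neighbours further down did. The order went on with microglia at 785 CPM and ended with astrocytes at 547 CPM and oligodendrocytes at 506 CPM. By share of nuclei with a UMI, Camk4 was in 36.6% of ExNeuron3 nuclei (33.7% to 39.5%), 35.5% after thinning to 300 UMIs, and in 17.6% of astrocytes, 14.2% after thinning.

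Camk2d was also highest in ExNeuron3, at 467 CPM (402 to 540) and 15.0% of nuclei, against 214 CPM in ExNeuron1 (184 to 248). Its interval overlapped those of microglia at 444 CPM (236 to 759) and precursors at 418 CPM (286 to 590), and after thinning its share was 11.6% to 16.8% of nuclei in ExNeuron3 (95% interval) and 6.19% to 32.0% in microglia. Camk2g was highest in astrocytes, at 312 CPM (244 to 392) and 11.2% of nuclei (10.5% after thinning), followed by ExNeuron5 at 195 CPM (127 to 286), whose interval overlapped. It stood at 105 CPM in ExNeuron3 and 166 CPM in ExNeuron1. Nrgn was highest in ExNeuron1, at 1634 CPM (1548 to 1723), an interval that overlapped that of microglia at 1434 CPM (1033 to 1938), and lowest in ExNeuron4, at 949 CPM (842 to 1065), with 1307 CPM in astrocytes. Camkk2 ran from 240 CPM in ExNeuron2 (191 to 298) to 86.0 CPM in ExNeuron4 (56.2 to 126).

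For Camk2a and Camk2b neighbouring classes could not be ordered. The highest value of each, in microglia, rested on 21 and 18 UMIs in 93 nuclei with a median of 285 UMIs. Camk2a was at 717 CPM there (444 to 1096), at 580 CPM in ExNeuron1 (529 to 634) and at 317 CPM in ExNeuron4 (257 to 388). Camk2b ran from 614 CPM in microglia (364 to 971) to 370 CPM in ExNeuron4 (305 to 446). For both genes every neighbouring pair of classes had overlapping intervals, while the intervals of ExNeuron1 and ExNeuron4 were apart for Camk2a.

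**Figure D5:**
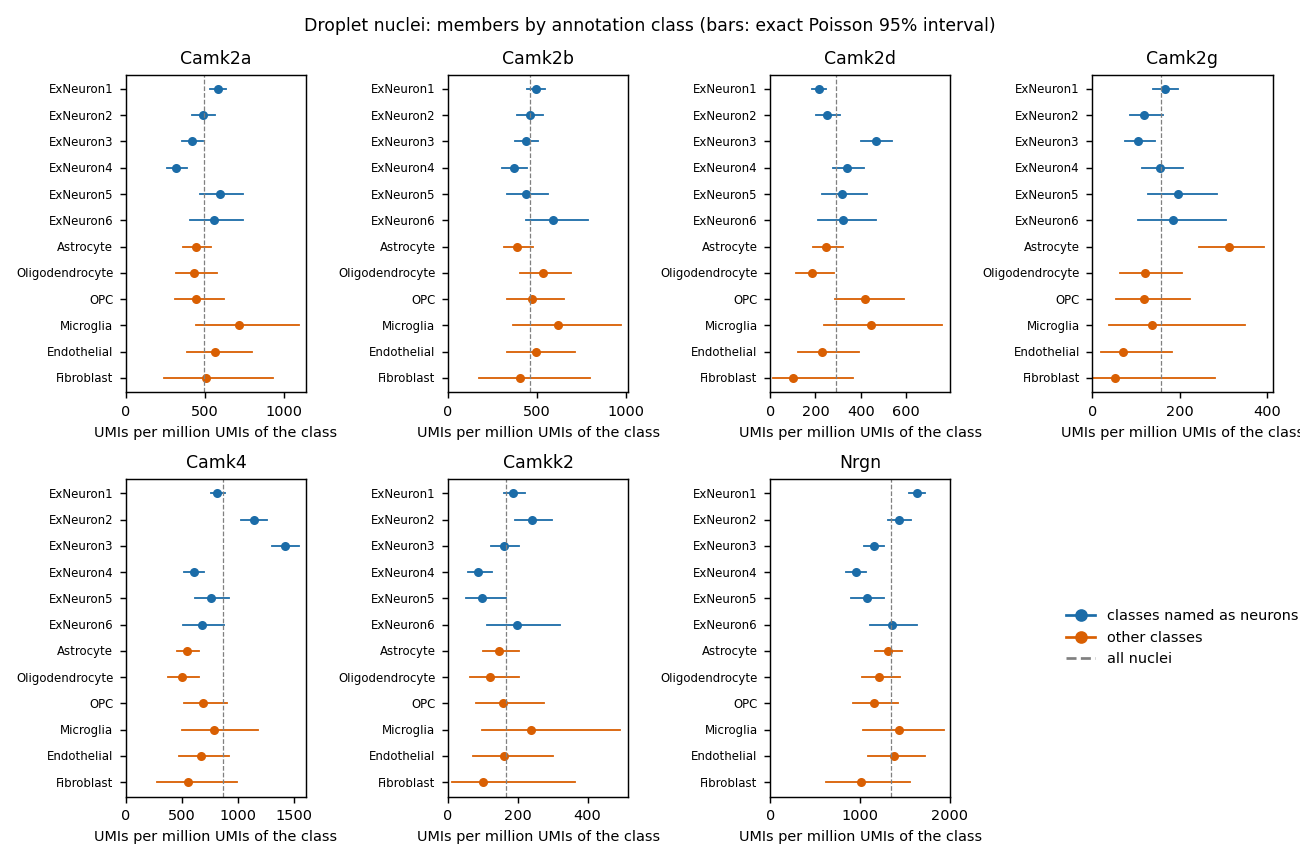
UMIs per 1000000 (CPM) of each gene in the 12 authors' classes of droplet nuclei, with exact 95% Poisson intervals and a dashed line at the level over all nuclei. Camk4 peaks in ExNeuron3 (1424 CPM), apart from every other class, while the highest classes of Camk2d (ExNeuron3, 467 CPM), Camk2g (astrocytes, 312 CPM) and Nrgn (ExNeuron1, 1634 CPM) overlap their neighbours.

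In the classes not named as neurons, most of these genes had a UMI in a share of nuclei near that of the neuron classes. UMIs of other types' markers were also spread over the classes: the neuron classes had 1395 to 1981 CPM of the oligodendrocyte list, against 11291 in oligodendrocytes, and 1025 to 1526 CPM of the astrocyte list, against 4370 in astrocytes. A UMI in a nucleus is therefore not read as expression in its class, and the part of free RNA in these shares was not tested. The share of nuclei with a UMI in the 5580 neuron nuclei and the 1451 others, both at a median depth near 325 UMIs, was 16.3% and 15.2% for Camk2a, 15.5% and 14.7% for Camk2b, 37.3% and 34.5% for Nrgn, and 6.1% and 5.2% for Camkk2. It was 10.2% and 8.5% for Camk2d, 27.6% and 17.8% for Camk4, and 5.3% and 7.0% for Camk2g. The share was higher in neurons for 6 of 7 members, against 61.0% of 2734 genes with at least 200 UMIs. After thinning to 300 UMIs it was higher for 3 members, against 55.6% of genes, and after thinning to 250 UMIs for 4, against 56.0%. Of the members 4 had their highest class among those named ExNeuron (Camk2d, Camk4, Camkk2 and Nrgn), against 35.1% of genes.

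Likeness between genes was measured as Pearson's r of log2(CPM + 10) over the 12 classes, which share 1 library, among 2733 genes of at least 200 UMIs. It is a description of these classes, in which sparse counts and small classes weigh as much as large ones. Camk4 was most like Caln1 (0.94), Kcnd2 (0.93) and Cadps2 (0.91), and Camk2g most like Fmn2 (0.96), Fat3 (0.91) and Acap2 (0.90). Camk2d was nearest to Fbxl20 (0.88), Rlf (0.87) and Maml3 (0.87). Camk2a was nearest to Camkv (0.80), Adcy9 (0.79) and Rps15 (0.78), and Camk2b to Ctxn1 (0.84), Nsmf (0.84) and Arsb (0.82). Nrgn and Camkk2 were near each other (0.85), next to Cck (0.83) and Ngef (0.80) for Nrgn and to Ctxn1 (0.86) and Uqcr11 (0.84) for Camkk2.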

How the data were processed

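All analyses started from the count tables the authors deposited: raw counts per gene for wells of both bulk chemistries and for plate nuclei, and UMI counts for droplet nuclei. The builds hg19 and mm10 come from the submitters' processing notes; no aligner or counter, and no UMI collapse for SCRB-seq, is given in the sources used here. Groups came from the labels and the authors' annotation tables, and human genes were left out of fits and totals. CPM are counts per 1000000 mouse counts. Droplet totals differed from the authors' own in 131 of 7031 nuclei.

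Wells were fitted over all genes with edgeR 4.0.16 (R 4.3.3; TMM, filterByExpr with a minimum count of 10, quasi-likelihood test, threshold 0.05); DESeq2 1.42.0 was an alternative. These scripts were tested on simulated data. Wells of 1 GEO sample are technical, so p-values measure the spread between wells. Nuclei have exact intervals and no test. Python 3.11.15, numpy 2.4.6, pandas 2.3.3, scipy 1.17.1 and matplotlib 3.10.9 were used.

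Named were all members, the 3 genes most like each in droplet classes, and called genes of the pathway list, up to 5 per direction. Some results under this rule are left out here. The members and all lists were chosen with earlier results of these data known. Alternatives covered scaling, filters, nuclei number, pooling and left-out wells; leaving out mineral oil wells was chosen after seeing the data.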

Additional observations from a re-analysis of the deposited data

Results flagged for a closer look

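In groups of 8 SCRB-seq wells, 13 of 52 groups tested had a highest well set apart from the rest by Dixon's criterion, and 4 more groups were at 1 value throughout and could not be tested. Chance gives about 1 in 20 groups for normally distributed values, a rate that need not hold for sparse counts, so nothing is read from the number of such groups. Each flagged well was the highest of its group. In mineral oil wells of 10 nuclei, Camk2a was at 48.6 CPM in the highest well, a single count, and 0 in the other 7, and Camk2b at 2599 against 670 CPM. In mineral oil wells of 100 nuclei, Camk2a was at 90.9 against 18.9 CPM and Camk2d at 1057 against 325 CPM. In heated xylene wells of 10 nuclei, Camk2d was at 622 against 227 CPM, Camk2g at 294 against 175 CPM, Camkk2 at 336 against 113 CPM and Nrgn at 411 against 93.4 CPM. In heated xylene wells of 100 nuclei, Camk2a was at 520 against 237 CPM, Camk2g at 422 against 226 CPM and Camk4 at 2213 against 1208 CPM. Camk2g was at 401 against 186 CPM in room-temperature xylene wells of 10 nuclei and at 216 against 59.2 CPM in frozen wells of 10 nuclei.

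The effect of 100 over 10 nuclei on Camkk2 differed between FFPE and frozen wells, with an interaction of 2.27 on the log2 scale (adjusted p = 0.0262), and of -0.19 without the mineral oil wells.

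The SCRB-seq table also held human genes, with 9.47% of its 4464854 counts, which no comparison used. Human CAMK2B had 32 counts in 23 wells (4 of the counts in frozen wells), CAMK2D 25 counts in 15 wells (2 in frozen wells) and CAMK2G 35 counts in 22 wells (5 in frozen wells).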

How the results depend on the processing

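In SCRB-seq, FFPE minus frozen called 857 genes, and 141 with counts summed per pool, 2096 with a minimum count of 3, 4785 with no filter, 478 in wells of 10 nuclei only and 1312 without mineral oil wells of 10 nuclei. For mineral oil against heated xylene (92 genes), heated against room-temperature xylene (21) and mineral oil against room-temperature xylene (111), a minimum count of 3 gave 511, 248 and 477, no filter 3415, 2899 and 2925, nuclei number as a covariate 143, 62 and 201, and wells of 100 nuclei only 256, 117 and 178. Without mineral oil wells of 10 nuclei the first and second pair gave 173 and 163, and DESeq2 gave 33 for the second. For 100 against 10 nuclei, FFPE wells called 1436 genes, with 4038 at a minimum count of 3, 5273 with no filter and 663 without mineral oil. Frozen wells called 1, with 2 by DESeq2, its size factors or a minimum count of 3, 24 with no filter and 0 in the fit without mineral oil. The difference called 417, with 664 by DESeq2, 729 with its size factors, 1067 at a minimum count of 3, 1205 with no filter and 123 without mineral oil. In SMART-Seq2, FFPE minus frozen called 372 genes, 630 by DESeq2 (331 higher and 299 lower) and 162 to 469 with 1 well left out. Its 3 pairs called 0, with 16, 1 and 20 by DESeq2, 19, 5 and 16 with no filter, and 0 to 6, 0 and 0 to 8 with 1 well left out. The members with a larger share in neurons than in other droplet nuclei were 6, with 3 after thinning to 300 UMIs and 4 after thinning to 250. The cause was not tested for any of these. The filters also change how many genes are tested, and leaving out wells changes how many wells are compared.

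Among members, FFPE minus frozen of Camkk2 reversed to 0.01 in wells of 100 nuclei, 0.09 without mineral oil wells of 10 nuclei and 0.21 for mineral oil alone. Without mineral oil, 100 over 10 nuclei in FFPE reversed for Camk2a (-0.16), Camk2d (-0.04), Camk2g (-0.33), Camk4 (-0.12) and Camkk2 (-0.14), and its difference from frozen for Camk2a (-0.28), Camk2d (-0.84), Camk2g (-1.49), Camk4 (-0.63) and Camkk2 (-0.19); Camk2g also reversed by DESeq2 (-0.14). Between preparations the differences, none of them called in all wells, changed sign as follows. Mineral oil against heated xylene gave 0.01 for Camk2b in wells of 10, and in wells of 100 gave 0.18 for Camk2d and 0.40 for Camk4. Without mineral oil wells of 10 it gave 0.02, 0.40 and 0.67 for Camk2b, Camk2d and Camk4. Heated against room-temperature xylene gave 0.21 for Camk2d and 0.58 for Camk4 in wells of 100. Mineral oil against room-temperature xylene gave -0.02 for Camk2b under DESeq2 and its size factors, -0.07 with no filter and -0.04 in wells of 100, 0.39 for Camk2d and 0.98 for Camk4 in wells of 100, and 0.15 and 0.53 without mineral oil wells of 10. Of the members' alternative values, 498 stayed the same. These kept direction and side of the threshold or, for shares and levels without a test, lay within the interval of the main value. Another 21 lost their call, 6 gained one and 30 changed sign, and 140 values without a test moved outside that interval. The main SCRB-seq fits of single preparations against frozen wells were counted as alternatives of FFPE minus frozen, and their own alternatives were not counted. Camk2a and Nrgn in FFPE minus frozen kept their sign in every alternative run in both chemistries.

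Wells could not be paired by replicate because the labels give no replicate numbers shared between groups. Wells matched by nuclei number, as a block in SMART-Seq2, called 429 genes for FFPE minus frozen and 0 for each pair, and lost Nrgn in mineral oil (-4.04, adjusted p = 0.0881) and Camk2a in heated (adjusted p = 0.0579) and room-temperature xylene (adjusted p = 0.0504). Depth limits the mineral oil wells of 10 nuclei most, where 0 counts over the pooled wells allow up to 32.0 CPM by counting error alone.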
